A study of Mus musculus with 6 samples.

Results

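The epidermal differentiation complex is a cluster of genes on mouse chromosome 3 that encode proteins of the cornified envelope, the cross-linked shell that replaces the plasma membrane of a keratinocyte as it dies to form the skin surface. Genes of the complex were taken from the array by name: every Lce and Sprr gene with a number, plus Flg, Flg2, Hrnr, Rptn, Crnn, Tchh, Tchhl1, Lor, Ivl, Crct1, Kprp, Pglyrp3 and Pglyrp4. The S100 genes of the complex were not selected and form a separate list. Below, counts for genes of the complex cover the selected names. The names matched 48 genes, read by 56 of 56605 probes, and 47 of them were among the 19754 features tested. Their probes lay between positions 90539505 and 93275887 of chromosome 3 (build mm9, the build of the probe coordinates in the files), a stretch of 2.74 Mb.

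Expression was measured on 6 one-colour Agilent arrays of skin tumours from male mice. The labels give 3 tumours the genotype P2ry6+/+, called labelled wild-type here, and 3 the genotype P2ry6-/-, called labelled knockout. The product of P2ry6 is a cell-surface receptor that responds to the nucleotide UDP, and the comparison asks which genes differ with its labelled genotype. Both groups had the same skin carcinogenesis protocol: 195 nmol of the mutagen DMBA once on shaved back skin, then 16 nmol of the phorbol ester TPA, a tumour promoter, 2 times a week up to week 22, in 12 mice of each genotype. The labels give no strain, no age, no driver or tissue for the deletion, and no statement that the 3 tumours of a group came from separate mice, so the p-values rest on the spread among these 6 samples, which may be technical. No untreated skin was among the samples.

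Keratinocytes leave the basal layer, stop dividing and build the envelope in order. Involucrin and the plakins are laid down first as a scaffold, small proline-rich (Sprr) proteins and loricrin are cross-linked onto it by transglutaminases, and late cornified envelope (Lce) proteins are added last. Filaggrin and its relatives, which fuse a calcium-binding S100 domain to long repeats, pack keratin filaments or join the envelope. Several Sprr genes are also known to be induced by phorbol ester, wounding and inflammation.

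A level is given here as log2 of the background-corrected spot signal minus the array's own 75th percentile, so that 0 lies at that percentile and 1 unit is a 2-fold step. A difference is the labelled knockout mean minus the labelled wild-type mean. Levels of different probes do not rank genes by abundance, since probes differ in how brightly they report. Between 54.2% and 59.4% of non-control spots were well above background on each array, and 0 spots were saturated. The 6 arrays shared 1 slide and 1 scan. Slide rows were 1, 1 and 2 for labelled wild-type tumours 1, 2 and 3, and 2, 3 and 3 for their labelled knockout counterparts, so row nearly follows genotype and both genotypes share row 2 alone, through labelled wild-type tumour 3 and labelled knockout tumour 1.

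P2ry6 itself was not lower in the labelled knockout tumours. One probe read 0.38, 0.33 and -0.21 in labelled wild-type tumours 1, 2 and 3, and 0.57, 0.70 and 0.45 in labelled knockout tumours 1, 2 and 3; the other read -0.93, -1.15 and -1.65, against -0.95, -0.70 and -0.45. Since the deleted part of the gene is not given, either probe may lie outside it, and neither checks the genotype. All 6 samples carried the keratin pair of stratified epithelium at high level, with Krt14 between 9.63 and 9.96 and Krt5 between 9.23 and 9.62. In bulk tumour tissue, fewer cells of a type and less RNA per cell cannot be told apart.

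Envelope genes of the complex read higher in the labelled knockout tumours as a group, by modest amounts, and none passed the test after adjustment. Of the 47 genes tested, 42 had a higher mean in labelled knockout tumours and 5 a lower one, while 52.1% of all features tested read higher. The median difference was 0.72 over these genes and 0.017 over all features. Lce1, most of Sprr2, Lce6a, Kprp, hornerin, repetin and involucrin were among the higher ones, Sprr1 and most of Lce3 had differences near 0, and trichohyalin read lower. With limma and Benjamini-Hochberg adjustment over all 19754 features, 0 of the 47 had an adjusted p under 0.05 (background 0.162% of features, 32 in all), and the smallest adjusted p was 0.201. At an unadjusted limma p under 0.05, 23 of the 47 were higher (background 7.85%) and 0 were lower (background 5.36%).

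In 22 of the 47 genes every labelled knockout tumour lay above every labelled wild-type tumour (background 12.1%), and in 0 every one lay below (background 7.36%). A design of 3 samples against 3 cannot give an exact permutation p below 0.1, and these 22 genes were at that floor. A difference of 2-fold or more in favour of the labelled knockout was found for 6 of the 47 (background 2.54%): Sprr2b, Sprr2k, Sprr2j-ps, Hrnr, Rptn and Crnn. 1 gene, Tchh, read lower by 2-fold or more (background 3.39%). Restricting both sets to a mean level of 3 or more left 37 genes of the complex, 97.3% of them higher with a median difference of 0.75, beside 4337 features of which 51.2% were higher with a median of 0.0092. This cut dropped Tchh, Tchhl1, Sprr3 and Sprr4, which read lower, and left Sprr1a as the only lower gene. All 47 genes were well above background on all 6 arrays, so none entered the test through 1 genotype alone; the 48th, Sprr2a1, was not well above background on any array.

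**Figure D1:**
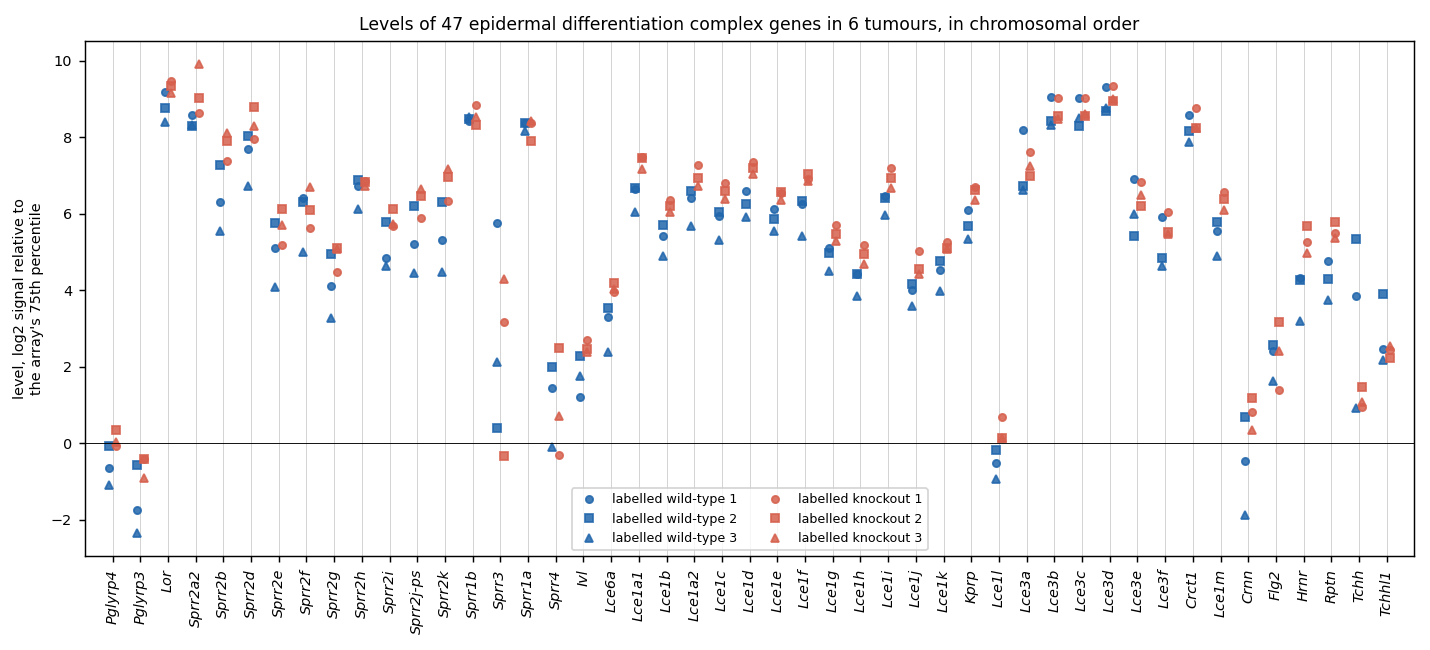
Level of each of the 47 genes (log2 signal relative to the array's 75th percentile) in 3 labelled wild-type tumours (blue) and 3 labelled knockout tumours (red), in the order of the probes along chromosome 3; symbols give the tumour number, and levels of different genes are not comparable. Labelled wild-type tumour 3 (blue triangles) is the lowest of the 6 samples for 37 genes, and Sprr3 and Tchh spread over several log2 units.

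Labelled wild-type tumour 3 stood apart. It was the lowest of the 6 samples for 37 of the 47 genes, and the median level over the 47 genes was 4.90 there, against 5.76 and 5.79 in labelled wild-type tumours 1 and 2 and 6.33, 6.21 and 6.36 in labelled knockout tumours 1, 2 and 3. With that tumour left out, the median difference was 0.50, 38 genes read higher and 9 lower, and 22 genes showed no overlap between groups (background then 17.6%). The count at an unadjusted p under 0.05 was 17 without it (background 6.16%), and 15 without labelled knockout tumour 1 (background 7.20%) or without labelled knockout tumour 2 (background 4.58%). No gene of the complex passed the adjusted threshold with any 1 sample left out. With slide row as a block, added after seeing the data, genotype rests on the 2 arrays of row 2, 1 of which is labelled wild-type tumour 3. The median difference was then 1.20, with 45 genes higher and 2 lower, and 0 passed the adjusted threshold (limma), while 26 were higher (background 5.61%) and 0 lower (background 4.75%) at an unadjusted p under 0.05.

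The samples also differed in markers of other tissues that a back-skin specimen can hold. All 14 skeletal muscle markers tested were lower in the labelled knockout tumours, 2 of them past the adjusted threshold (limma), and for 8 of them 0 of 3 labelled knockout arrays were well above background; their summed signal (log2) ranged from 4.41 to 8.53 in labelled wild-type and from 1.63 to 3.09 in labelled knockout tumours. Of 10 adipocyte markers 9 were lower, 3 past the adjusted threshold and 4 with 0 of 3 labelled knockout arrays well above background, with summed signals of 8.35 to 9.05 against 7.58 to 8.93. Such a sum follows the brightest gene of a list, here Fabp4. It read 8.17, 8.39 and 8.91 in labelled wild-type tumours 1, 2 and 3, and 8.85, 7.54 and 7.45 in labelled knockout tumours 1, 2 and 3. Cfd and Car3, among the 4 markers not above background in the labelled knockout, differed by -6.52 and -7.57. Sebaceous gland markers were lower for 9 of 10 (5.51 to 7.79 against 5.80 to 6.16) and hair follicle markers for 16 of 19 (4.34 to 8.48 against 4.97 to 5.19), with 0 of either past the adjusted threshold. The brightest sebaceous marker, Dgat2, was the 1 that read higher. At an unadjusted limma p under 0.05, 13 muscle, 6 adipocyte, 7 sebaceous and 7 hair follicle markers were lower (background 5.36%). None of these lists had a marker higher at that p (background 7.85%). Their median differences were -5.18, -3.71, -2.66 and -2.58 in the same order. Basal keratinocyte markers were at 10.84 to 10.91 against 10.85 to 11.15, with 10 of 13 higher and 0 past the threshold. Whether the share of these tissues plays a part in the differences of the envelope genes was not tested.

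Loricrin and involucrin are the best known envelope proteins: loricrin is a glycine-rich protein that makes up much of the finished shell, and involucrin is an early scaffold protein. Ivl, involucrin, read 1.20, 2.28 and 1.76 in labelled wild-type tumours 1, 2 and 3 and 2.69, 2.48 and 2.39 in labelled knockout tumours 1, 2 and 3. The groups did not overlap, and the difference was 0.77 (SE 0.28, limma adjusted p 0.336). Lor, loricrin, read 9.19, 8.76 and 8.40 in the labelled wild-type tumours and 9.46, 9.33 and 9.15 in the labelled knockout tumours. Here labelled wild-type tumour 1 lay just above the lowest labelled knockout tumour, and the difference was 0.53 (SE 0.23, limma adjusted p 0.390).

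The 14 Lce1 genes encode small cysteine-rich envelope proteins that appear late in differentiation. They lie close together, except for Lce1m, which is on the far side of the Lce3 genes. Among the families with 6 or more genes tested, Lce1 had the narrowest range of differences. All 14 read higher in the labelled knockout tumours, without overlap between groups in any of them (background 12.1%), by 0.63 to 0.94 (median 0.79). Their SEs ran from 0.19 to 0.28 and their limma adjusted p from 0.201 to 0.342, so none passed. Labelled wild-type tumour 3 was the lowest sample for all 14, and labelled knockout tumour 1 the highest for 12. With labelled wild-type tumour 3 left out, all 14 did not overlap (background then 17.6%) and the differences ran from 0.45 to 0.77. At an unadjusted limma p under 0.05, 14 were higher with all samples (background 7.85%). That count was 11 without labelled wild-type tumour 3 (background 6.16%) and 8 without labelled knockout tumour 1 (background 7.20%).

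Lce1d, the Lce1 gene with the largest difference, read 6.59, 6.25 and 5.90 in labelled wild-type tumours 1, 2 and 3 and 7.35, 7.19 and 7.03 in labelled knockout tumours 1, 2 and 3. The gap between the groups, from 6.59 to 7.03, was wider than the steps between the labelled knockout tumours, and the difference was 0.94 (95% interval 0.43 to 1.45, limma adjusted p 0.201). Lce1f had nearly the same difference, 0.94 (SE 0.26, limma adjusted p 0.250), from 6.26, 6.32 and 5.42 against 6.92, 7.04 and 6.87. Its labelled knockout values lay within a narrow band, and its low labelled wild-type value was again tumour 3.

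Lce1a1 read 6.65, 6.67 and 6.04 in the labelled wild-type tumours and 7.48, 7.46 and 7.16 in the labelled knockout tumours. Its difference was 0.91 (SE 0.22, limma adjusted p 0.218). Lce1i read 6.46, 6.41 and 5.96 against 7.18, 6.94 and 6.67, a smaller difference of 0.66 (SE 0.21, limma adjusted p 0.295). Across the family, levels differed between tumours of a group by an SD of 0.28 to 0.50 in labelled wild-type and 0.09 to 0.32 in labelled knockout samples. The differences of the other Lce1 genes were 0.93 for Lce1m, 0.87 for Lce1l, 0.86 for Lce1b, 0.83 for Lce1c, 0.75 for Lce1j and for Lce1a2, 0.72 for Lce1k, 0.70 for Lce1h, 0.66 for Lce1e and 0.63 for Lce1g. Lce1l, given in full after its values were seen, read -0.50, -0.18 and -0.94 in the labelled wild-type tumours and 0.69, 0.15 and 0.14 in the labelled knockout tumours. As in most of the family, labelled wild-type tumour 3 was the lowest sample and labelled knockout tumour 1 the highest. The probe named Lce1c lists 3 genes and that named Lce1a2 lists 2, so these values may mix family members.

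Lce6a, a further late envelope gene between Ivl and Lce1a1, was read by 3 probes. The brightest gave 3.30, 3.53 and 2.39 in the labelled wild-type tumours and 3.96, 4.20 and 4.02 in the labelled knockout tumours. The groups did not overlap on any of the 3 probes, whose differences were 0.99 (SE 0.31, limma adjusted p 0.282 for the brightest), 1.099 and 0.92.

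The Lce3 genes, whose human counterparts are known to be induced in injured and psoriatic skin, did not separate the groups. All 6 read higher on average in the labelled knockout tumours, by 0.092 to 0.56 (median 0.15), but all 6 overlapped and their limma adjusted p lay between 0.560 and 0.947. The highest sample was labelled wild-type tumour 1 or labelled knockout tumour 1 for each of the 6. Lce3d read 9.30, 8.68 and 8.77 in labelled wild-type tumours 1, 2 and 3 and 9.32, 8.94 and 8.998 in labelled knockout tumours 1, 2 and 3, a difference of 0.17 (95% interval -0.36 to 0.70). The first tumour of either group was the high one, and a 2-fold difference lies outside this interval.

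Lce3c read 9.01, 8.30 and 8.49 against 9.03, 8.55 and 8.61, a difference of 0.13 (SE 0.24), and Lce3b read 9.04, 8.42 and 8.32 against 9.02, 8.55 and 8.49, a difference of 0.092 (SE 0.25). Lce3b and Lce3c were lower on average in the labelled knockout under array weights and in some fits with 1 sample left out, as was Lce3a. Lce3f, at 5.90, 4.83 and 4.62 against 6.05, 5.53 and 5.46, had the largest difference of the family at 0.56 (SE 0.36, limma adjusted p 0.560). Lce3e read 6.91, 5.41 and 5.98 against 6.82, 6.21 and 6.49, a difference of 0.41 (SE 0.39). Lce3a differed by 0.097 (SE 0.44).

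Probes of Lce3b, Lce3c and Lce3d are close copies of each other, and whether they read each other's transcripts was not tested. Lce3b and Lce3c match at 54 of 60 bases, Lce3c and Lce3d at 41 of the 44 bases they share, and Lce3b and Lce3d at 40 of 44. A 30-base stretch of each probe (mm9), with the 6 positions that differ within the trio in capitals, is printed to show the likeness.
Lce3b, chr3:92737897-92737926, plus strand: tttGtctgatcctggaCaCCcttctctgAT
Lce3c, chr3:92749531-92749560, plus strand: tttAtctgatcctggaGaGTcttctctgCC
Lce3d, chr3:92762377-92762406, plus strand: tttGtctgatcctggaGaACcttctctgCC

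To follow the families from array to array, the median Lce1 level minus the median Lce3 level was -2.86, -1.68 and -2.36 in labelled wild-type tumours 1, 2 and 3, and -1.75, -1.29 and -1.63 in labelled knockout tumours 1, 2 and 3. The labelled wild-type tumour 2 fell inside the labelled knockout range, so the contrast between the families overlapped between groups. That the families differ in their response was not tested. The 10 genes with the brightest probes (Lor, Lce3a to Lce3d, Sprr1a, Sprr1b, Sprr2a2, Sprr2d and Crct1) had a median difference of 0.15 and the other 37 one of 0.76. Whether signal strength plays a part in the size of the differences was not tested.

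**Figure D2:**
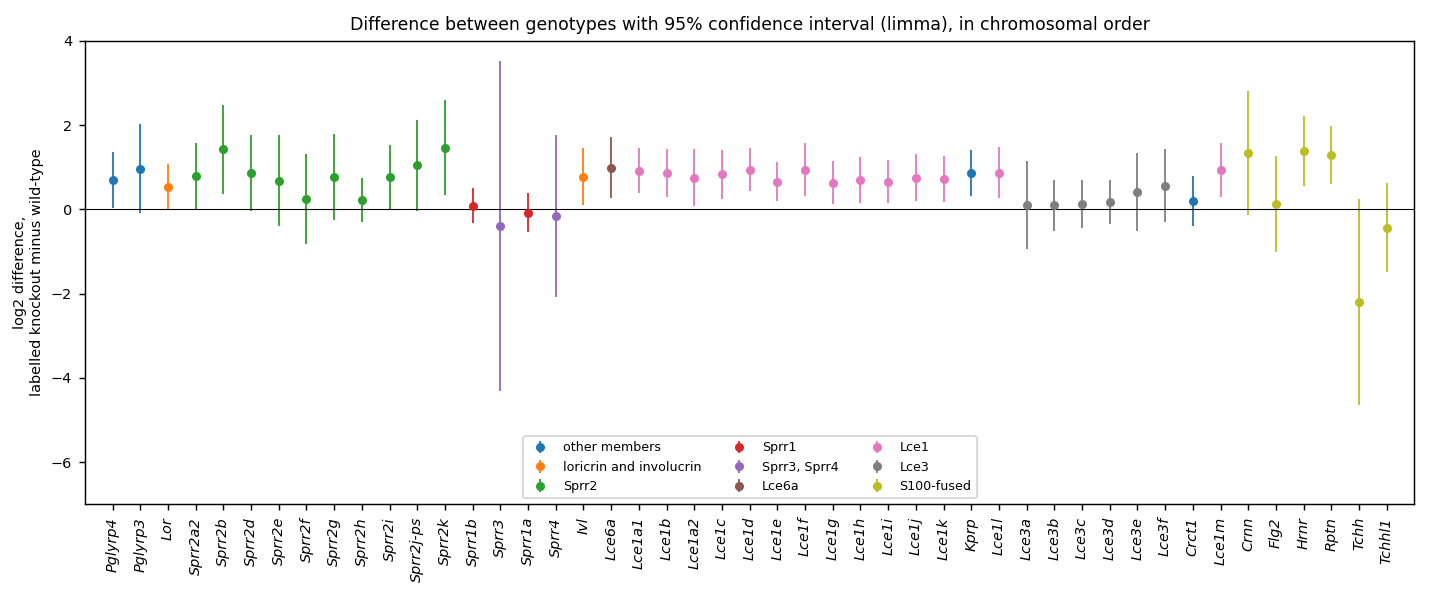
Difference between the group means (labelled knockout minus labelled wild-type, log2) of each of the 47 genes with its 95% confidence interval from limma, in chromosomal order and coloured by family. The 14 Lce1 genes form a level band from 0.63 to 0.94, the Lce3 genes lie at 0.092 to 0.56 with intervals that span 0, and Tchh and Sprr3 have the widest intervals.

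Sprr2 genes encode small proline-rich cross-bridging proteins and form a tandem array of near copies. Of 11, 10 were tested, and these 10 all read higher in the labelled knockout tumours, by 0.23 to 1.47 (median 0.78); 3 did not overlap (background 12.1%), and none passed the adjusted threshold, with limma adjusted p from 0.283 to 0.856. Sprr2k, the member with the largest difference, read 5.30, 6.30 and 4.46 in labelled wild-type tumours 1, 2 and 3 and 6.33, 6.96 and 7.17 in labelled knockout tumours 1, 2 and 3. Its groups touched closely, at 6.30 and 6.33, and the difference was 1.47 (SE 0.47, limma adjusted p 0.295).

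Sprr2b read 6.30, 7.27 and 5.54 in the labelled wild-type tumours and 7.37, 7.89 and 8.12 in the labelled knockout tumours. Its difference was 1.42 (SE 0.44, limma adjusted p 0.283), with a narrow gap between 7.27 and 7.37. Sprr2d read 7.69, 8.04 and 6.73 against 7.96, 8.80 and 8.28, a difference of 0.86 (SE 0.38, limma adjusted p 0.402), with overlap. Labelled wild-type tumour 3 had the lowest value for 9 of the 10, and for 9 of the 10 labelled knockout tumour 1 was the lowest of its group, where it was the highest for most Lce1 genes.

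Sprr2a2 gave unlike results on its 3 probes, all annotated to both Sprr2a1 and Sprr2a2. The brightest read 8.57, 8.30 and 8.32 against 8.64, 9.02 and 9.91, without overlap and with a difference of 0.79 (SE 0.33, limma adjusted p 0.376). A second bright probe differed by 0.078, with overlap, and the dimmest by 2.88, from -2.02, -0.14 and -2.89 against 0.54, 1.29 and 1.76. The remaining Sprr2 differences were 1.04 (SE 0.45) for Sprr2j-ps, a pseudogene, 0.76 each for Sprr2g and Sprr2i, 0.68 for Sprr2e, 0.24 for Sprr2f and 0.23 for Sprr2h, all with overlap.

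The Sprr2b and Sprr2k probes share 31 of 32 overlapping bases, and the Sprr2k and Sprr2j-ps probes 34 of 42, and whether these probes read each other's transcripts was not tested. The 30-base stretches below (mm9) have in capitals the 6 positions that differ within the trio; Sprr2b and Sprr2k differ at the first of them alone.
Sprr2b, chr3:92121449-92121478, plus strand: tgtCctcctCcaaagtgcccTgagCcTtGt
Sprr2k, chr3:92237336-92237365, plus strand: tgtTctcctCcaaagtgcccTgagCcTtGt
Sprr2j-ps, chr3:92222846-92222875, plus strand: tgtCctcctGcaaagtgcccAgagTcCtAt

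Sprr1a and Sprr1b, envelope precursors known as classic phorbol-ester-induced genes of the epidermis, differed little. Sprr1b read 8.42, 8.48 and 8.52 in labelled wild-type tumours 1, 2 and 3 and 8.83, 8.32 and 8.53 in labelled knockout tumours 1, 2 and 3. The difference was 0.088 (95% interval -0.33 to 0.50), and a second probe gave 0.0745. Sprr1a read 8.38, 8.36 and 8.16 against 8.36, 7.90 and 8.42, a difference of -0.076 (95% interval -0.53 to 0.38). Both intervals exclude a 2-fold difference in either direction, and either gene changed sign when 1 labelled knockout tumour was left out.

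Sprr3 and Sprr4 varied between tumours more than between groups. Sprr3, a proline-rich protein of wet stratified epithelia such as the oesophagus, read 5.76, 0.39 and 2.14 in labelled wild-type tumours 1, 2 and 3 and 3.16, -0.34 and 4.30 in labelled knockout tumours 1, 2 and 3. The spread within either group covered more than 4 units, against a difference of -0.39 (SE 1.64, limma adjusted p 0.942). Krt13, the keratin of the same epithelia, read 6.999, 1.5995 and 5.53 against 4.82, -1.89 and 6.41. Tumour 2 of each group was the low one for both genes, and labelled wild-type tumour 1 and labelled knockout tumour 3 were the high ones. Krt4, the usual partner of Krt13, read 1.66, -2.61 and -2.89 against 0.73, -4.81 and -0.56. Sprr4 read 1.45, 1.98 and -0.083 against -0.30, 2.48 and 0.70, a difference of -0.16 (SE 0.80). Krt13 and Krt4 were set beside Sprr3 after their values were seen.

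**Figure D3:**
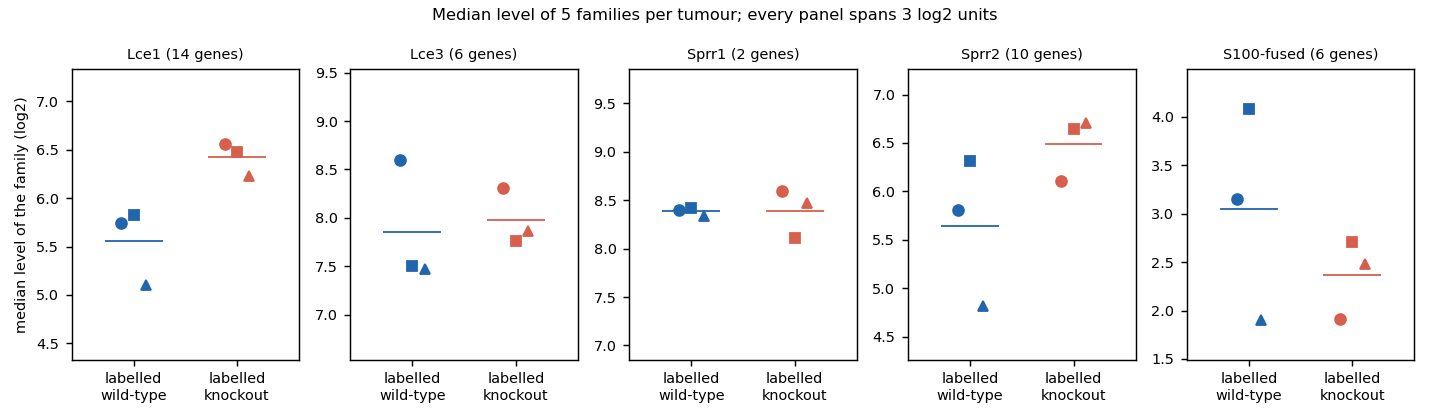
Median level of each of 5 families in every tumour, with the group means as lines; each panel spans 3 log2 units. Lce1 separates the groups, Lce3 and Sprr1 do not, Sprr2 overlaps through labelled wild-type tumour 2, and the S100-fused family (Flg2, Hrnr, Rptn, Crnn, Tchh and Tchhl1) mixes genes that read higher and lower.

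Of the S100-fused genes, hornerin and repetin gave the largest differences without overlap. Rptn, an envelope precursor with calcium-binding and repeat domains, read 4.78, 4.29 and 3.73 in labelled wild-type tumours 1, 2 and 3 and 5.51, 5.79 and 5.36 in labelled knockout tumours 1, 2 and 3. Its difference was 1.29 (95% interval 0.60 to 1.97), and its limma adjusted p of 0.201 was, with that of Lce1d, the smallest of the complex. Hrnr, hornerin, a filaggrin-like protein of the cornified layer, read 4.32, 4.27 and 3.196 against 5.27, 5.67 and 4.99, a difference of 1.38 (SE 0.35, limma adjusted p 0.229). Both genes had a clear gap between the groups, with labelled wild-type tumour 3 lowest.

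Crnn and Flg2 are also given in full after their values were seen. Crnn, cornulin, a protein of squamous epithelia, read -0.46, 0.69 and -1.87 against 0.82, 1.19 and 0.35, a difference of 1.33 (SE 0.62, limma adjusted p 0.420) with overlap. Flg2, filaggrin-2, read 2.41, 2.58 and 1.63 against 1.40, 3.17 and 2.41, a difference of 0.12 (SE 0.48), and its second probe gave 0.0023. Labelled knockout tumour 1 was the lowest of all samples for Flg2, although it was among the highest for Lce1. Differences in the family ran from -2.20 to 1.38, and their median of 0.70 was 0.25 without labelled wild-type tumour 3. The family's median level did not follow that sign. It read 3.15, 4.08 and 1.90 in labelled wild-type tumours 1, 2 and 3, and 1.92, 2.71 and 2.48 in their labelled knockout counterparts. Labelled wild-type tumours 1 and 2 were thus the highest samples and tumour 3 the lowest.

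No probe carries the symbol Flg, so filaggrin fell outside the selection by name. Probes that the array describes as filaggrin were looked up after that was seen, and these 2 are counted nowhere else. One (mm9 chr3:93083694-93083753) read 7.04, 6.91 and 6.94 in labelled wild-type and 7.61, 7.57 and 7.82 in labelled knockout samples, differing by 0.70 (SE 0.15, limma adjusted p 0.186 over all probes). The other (chr3:93090187-93090246) read 4.40, 5.17 and 3.799 against 6.06, 6.44 and 5.97, a difference of 1.70 (SE 0.35, limma adjusted p 0.172). Neither overlapped between groups, and neither passed the threshold.

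Tchh, trichohyalin, hardens the inner root sheath of the hair follicle, and it had the largest difference in the other direction. It read 3.85, 5.33 and 0.91 in labelled wild-type tumours 1, 2 and 3 and 0.94, 1.47 and 1.07 in labelled knockout tumours 1, 2 and 3. The high values were those of labelled wild-type tumours 1 and 2, tumour 3 lay just below the labelled knockout tumours, and the difference was -2.20 (SE 1.02, limma adjusted p 0.421), which was 0.031 with slide row as a block. Tchhl1, its neighbour, read 2.46, 3.90 and 2.18 against 2.43, 2.24 and 2.55, a difference of -0.43 (SE 0.44), and was 0.093 without labelled wild-type tumour 2.

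Hair keratins also varied widely between tumours. Krt71, a keratin of the inner root sheath, read 5.19, 7.25 and 1.37 in the labelled wild-type tumours and -3.74, 0.39 and -2.51 in the labelled knockout tumours, and Krt25 read 3.28, 5.36 and -0.34 against -4.78, -0.97 and -3.82. Neither overlapped between groups (differences of -6.56 and -5.96, limma adjusted p 0.228 and 0.236), and not all labelled knockout arrays measured them above background: 2 of 3 did for Krt71 and 1 of 3 for Krt25. S100a3, a calcium-binding protein of the hair cuticle and an S100 gene outside the selection by name, read 2.49, 4.58 and 0.32 against -0.39, -0.95 and -0.20. Labelled wild-type tumour 2 was the highest sample for all 4 genes. What part hair follicle tissue in the samples plays in the Tchh value was not tested.

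**Figure D4:**
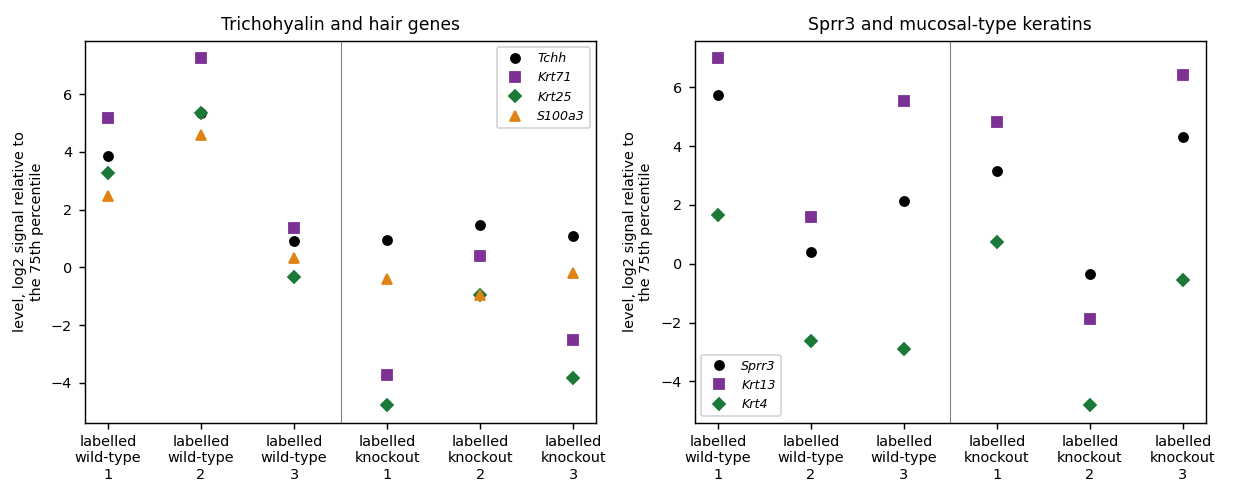
Level in each of the 6 tumours (log2 signal relative to the 75th percentile) of Tchh with the hair genes Krt71, Krt25 and S100a3 (left) and of Sprr3 with Krt13 and Krt4 (right). Labelled wild-type tumours 1 and 2 are high for Tchh and the hair genes, while Sprr3 is high and low within both groups, from 0.39 to 5.76 in labelled wild-type and from -0.34 to 4.30 in labelled knockout tumours.

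The 4 other genes of the complex all read higher in the labelled knockout tumours. Kprp, keratinocyte proline-rich protein, read 6.08, 5.67 and 5.34 in labelled wild-type tumours 1, 2 and 3 and 6.70, 6.62 and 6.36 in labelled knockout tumours 1, 2 and 3, without overlap and with a difference of 0.86 (SE 0.23, limma adjusted p 0.236). Crct1, which lies among the Lce genes, read 8.58, 8.16 and 7.87 against 8.76, 8.23 and 8.23, a difference of 0.20 (SE 0.25) with overlap. Pglyrp3 and Pglyrp4 encode secreted proteins that bind bacterial peptidoglycan. Pglyrp3 read -1.74, -0.58 and -2.34 against -0.42, -0.42 and -0.92, a difference of 0.97 (SE 0.44, limma adjusted p 0.413). Pglyrp4 read -0.64, -0.079 and -1.09 against -0.080, 0.34 and 0.044, a difference of 0.71 (SE 0.28, limma adjusted p 0.358), and its groups overlapped only through labelled wild-type tumour 2 and labelled knockout tumour 1.

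Promoter sequence was described for the same families. RefSeq sequence (GRCm38.p6) from 250 bases before to 50 after the start was at hand for 41 of the 48 genes. It was searched for TGANTCA, which reads the same on both strands, and for TATAAA on either strand. The motifs did not overlap. With G or C as its middle base, TGANTCA is the AP-1 motif known as the phorbol ester response element. The search also took A or T there, so it is wider than that element. TGANTCA was in 15 of the 41 (36.6%), against 7.81% of all 32851 promoters of that length, and TATAAA in 19 of the 41 (46.3%), against 13.6%.

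By family, TGANTCA was in both Sprr1 promoters, 7 of 9 Sprr2, both Lor and Ivl, and 4 of 6 S100-fused promoters, and in 0 of 13 Lce1 and 0 of 6 Lce3 promoters. TATAAA was in both Sprr1 promoters, 7 of 9 Sprr2, both Lor and Ivl, 3 of 6 S100-fused, 2 of 13 Lce1 (15.4%) and 1 of 6 Lce3 promoters; Lce1d is one of the 2. Whether either motif bears on the differences was not tested. The 250 bases before the start are printed for Sprr1a, with a difference of -0.076, Sprr2k, with 1.47, Rptn, with 1.29, Lor, with 0.53, Lce1d, with 0.94, and Lce3d, with 0.17; capitals mark TGANTCA and TATAAA. A match is a description of the letters and not a measured binding site.
Sprr1a, chr3:92485882-92486131, minus strand: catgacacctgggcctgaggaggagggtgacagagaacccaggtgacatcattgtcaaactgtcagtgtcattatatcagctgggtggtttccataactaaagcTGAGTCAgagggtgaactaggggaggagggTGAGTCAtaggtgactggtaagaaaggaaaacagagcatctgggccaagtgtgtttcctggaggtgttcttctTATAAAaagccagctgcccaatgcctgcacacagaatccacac
Sprr2k, chr3:92432332-92432581, plus strand: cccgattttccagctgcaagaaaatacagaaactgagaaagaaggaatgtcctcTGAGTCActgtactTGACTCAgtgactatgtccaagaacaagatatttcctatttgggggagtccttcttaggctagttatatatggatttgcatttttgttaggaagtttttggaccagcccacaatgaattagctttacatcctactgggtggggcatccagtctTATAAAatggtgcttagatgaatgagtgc
Rptn, chr3:93393449-93393698, plus strand: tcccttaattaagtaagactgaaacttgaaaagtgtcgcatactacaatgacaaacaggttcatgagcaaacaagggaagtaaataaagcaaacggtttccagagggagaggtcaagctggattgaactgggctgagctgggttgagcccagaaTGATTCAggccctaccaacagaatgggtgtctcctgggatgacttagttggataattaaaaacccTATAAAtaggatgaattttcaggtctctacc
Lor, chr3:92083143-92083392, minus strand: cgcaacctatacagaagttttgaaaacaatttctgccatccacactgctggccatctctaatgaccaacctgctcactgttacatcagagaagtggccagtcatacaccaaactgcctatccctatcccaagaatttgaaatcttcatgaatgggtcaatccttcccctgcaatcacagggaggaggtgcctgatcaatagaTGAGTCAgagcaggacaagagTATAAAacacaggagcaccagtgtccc
Lce1d, chr3:92687211-92687460, minus strand: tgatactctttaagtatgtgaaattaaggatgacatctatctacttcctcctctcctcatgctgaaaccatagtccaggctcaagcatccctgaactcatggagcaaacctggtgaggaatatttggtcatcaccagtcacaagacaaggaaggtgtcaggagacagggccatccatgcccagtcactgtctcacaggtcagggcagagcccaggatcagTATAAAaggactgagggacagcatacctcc
Lce3d, chr3:92957140-92957389, plus strand: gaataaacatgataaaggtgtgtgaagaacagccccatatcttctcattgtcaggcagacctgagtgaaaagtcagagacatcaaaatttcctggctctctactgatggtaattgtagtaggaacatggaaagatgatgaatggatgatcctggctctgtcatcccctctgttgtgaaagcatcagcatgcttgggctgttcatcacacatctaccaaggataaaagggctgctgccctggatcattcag

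In these sequences, Sprr1a has TGANTCA 146 and 116 bases before the start, and Sprr2k has it at 196 and 182. Rptn has it at 96, with T as the middle base, and Lor at 48. TATAAA begins 43 bases before the start of Sprr1a, 29 before that of Sprr2k, 31 before that of Rptn, 27 before that of Lor and 30 before that of Lce1d. Lce3d has neither in the window.

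Enzymes and scaffold proteins that build the envelope outside the complex read mostly higher too, and none passed the adjusted threshold. Of 19 scaffold and cross-linking genes, 15 read higher and 4 lower (median 0.29), 4 of them higher at an unadjusted limma p under 0.05 (background 7.85%) and 0 lower (background 5.36%). They were Tgm5, a transglutaminase, with a difference of 0.96 (limma adjusted p 0.201), Calm4, with 0.77, Serpinb3a, with 0.94, and Evpl, envoplakin, a plakin of the early scaffold, with 0.49. In each of the 4 the groups did not overlap. Over the whole list, 6 of 19 genes had every labelled knockout tumour above every labelled wild-type tumour (background 12.1%). Krtdap, one of the brightest of the list, differed by 0.15. The 4 that read lower included the transglutaminases Tgm1 and Tgm3, with differences of -0.11 and -0.19. The others were Anxa1, with -0.30, and Scel, with -0.025.

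Filaggrin processing and shedding enzymes had the next highest median among the epidermal lists. Of 18 genes tested, 14 read higher and 4 lower, with a median of 0.48, and 6 were higher at an unadjusted limma p under 0.05 (background 7.85%) and 0 lower (background 5.36%). Klk5, a kallikrein protease that loosens corneocytes, read 4.53, 5.07 and 3.67 in labelled wild-type and 5.76, 5.998 and 5.46 in labelled knockout samples, differing by 1.31 (SE 0.36, limma adjusted p 0.249). Klk6 differed by 1.32, Asprv1, a protease that cuts profilaggrin, by 1.22, and Blmh, bleomycin hydrolase, which degrades filaggrin to amino acids, by 0.55. None of these 4 overlapped between groups. Over the whole list, 5 of 18 genes had every labelled knockout tumour above every labelled wild-type tumour (background 12.1%). Casp14 had the largest difference of the list, 1.35, with overlap (limma adjusted p 0.341).

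Genes of the barrier lipids read higher for 17 of 21 (median 0.21), 4 of them at an unadjusted limma p under 0.05 (background 7.85%), while 0 were lower at that p (background 5.36%). Among these were Lipn with a difference of 1.48, Lipk with 1.07 and Lipm with 0.77, lipases of the uppermost layers, none of which overlapped between groups. Over the whole list, 7 of 21 genes had every labelled knockout tumour above every labelled wild-type tumour (background 12.1%). The 13 suprabasal and stress keratins were split, 7 higher and 6 lower (median 0.23). Krt10, the keratin of the spinous layer, read 8.71, 8.78 and 8.38 against 9.34, 9.34 and 8.86, a difference of 0.56 (limma adjusted p 0.331), without overlap. Krt77 read -1.70, -3.01 and -3.55 in the labelled wild-type samples, while 0 of 3 labelled knockout arrays had it well above background.

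Regulators of terminal differentiation lay near 0 as a list, with 18 of 30 higher and a median of 0.077. Pou3f1, a POU-domain factor of suprabasal keratinocytes, differed by 1.03 without overlap (limma adjusted p 0.227), and Maf by 0.44, also without overlap. Elf3 and Satb1 differed by 1.04 and 1.08, with overlap (limma adjusted p 0.364 for both). Fosl1 differed by -0.88, with overlap (SE 0.39, limma adjusted p 0.404). At an unadjusted limma p under 0.05, 5 of the 30 were higher (background 7.85%) and 0 lower (background 5.36%). Klf4, a factor needed for the skin barrier, differed by 0.18 (SE 0.23), and Junb, a subunit of AP-1, by 0.035 (SE 0.24). Among 13 S100 genes, which are part of the complex but outside the selection by name, 7 read higher and 6 lower (median 0.043). S100a8 and S100a9, which form calprotectin and are abundant in hyperplastic epidermis and neutrophils, were higher without overlap, by 1.04 and 0.63 (limma adjusted p 0.267 for both). S100a3 had the largest difference of the list, -2.98, also without overlap (limma adjusted p 0.299). At an unadjusted limma p under 0.05, 2 of the 13 were higher (background 7.85%) and 1 lower (background 5.36%).

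**Figure D5:**
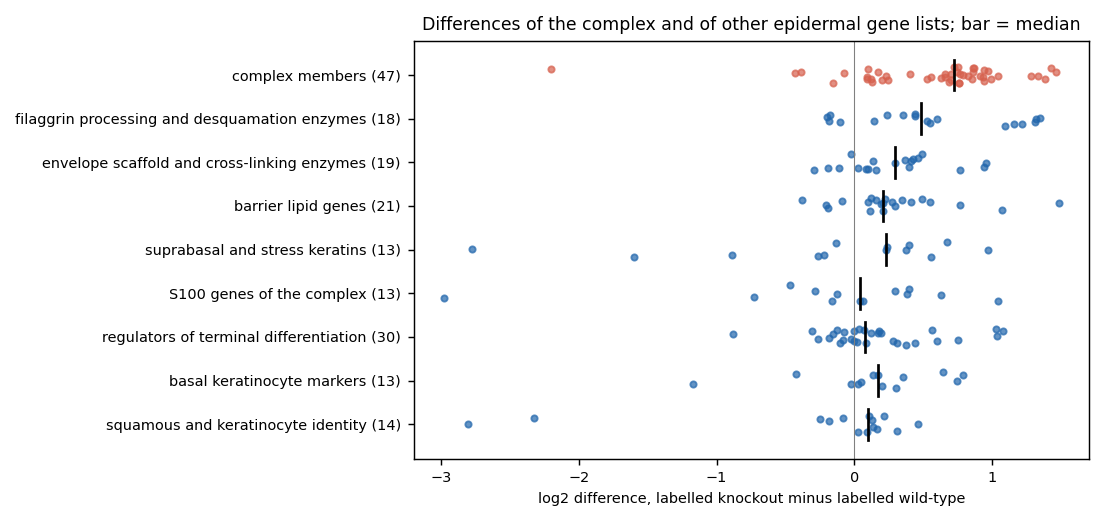
Differences between the group means (log2, labelled knockout minus labelled wild-type) of the 47 genes of the complex (red) and of 8 other epidermal gene lists (blue); each point is a gene, with random vertical scatter, and the bar is the list median. The medians run from 0.72 for the complex through 0.48 for filaggrin processing enzymes to 0.043 for the S100 genes.

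Beside these lists, basal keratinocyte markers had a median difference of 0.17 and the 14 genes of keratinocyte identity 0.10, with 9 higher and 5 lower. With every array centred on its basal keratinocyte markers instead of its 75th percentile, 42 genes of the complex read higher and 5 lower, and 0 passed the adjusted threshold. Such centring shifts all genes of an array alike. The median over all features moved from 0.017 to -0.050, too little to turn the smallest positive difference, 0.088 for Sprr1b. With that shift the counts could not change, so they do not test the share of keratinocytes. Leukocyte markers read higher for 9 of 10 (median 0.25) and fibroblast markers for 7 of 8 (median 0.41), with 0 of either past the adjusted threshold. Their part in the differences of the envelope genes was not tested.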

How the data were processed

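The authors deposited scanner output with spot intensity on a linear scale, which per the file headers had background and spatial trend taken off. Agilent Feature Extraction 10.7.1.1 is named in the submitters' processing notes. A value table that the authors deposited is on a log2 scale; columns followed the scanner values of the same arrays (r 0.99945 to 0.99997), had medians of 4.97 and were not centred by gene. For the tool behind it: not given in the sources used here.

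Outlier spots were dropped, spots of a probe averaged, and the 75th percentile of each array (non-control probes) subtracted from log2 signal. A probe was tested if all arrays of either genotype had it well above background, and the brightest probe stood for its gene. Genotypes were compared over 19754 features with limma 3.58.1 (lmFit and eBayes, R 4.3.3; two-sided, Benjamini-Hochberg, threshold 0.05); the code was tested on simulated data. Files were handled in data.table (version 1.17.8), Python 3.11.15 and pandas 2.3.3, and figures drawn with matplotlib 3.10.9. Other gene names were updated through RefSeq (GRCm38.p6): 32994 probes matched by accession, 10224 by symbol and 520 by synonym, and 12867 kept the array's name. Probe coordinates are those of the files (mm9).

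The members and lists were chosen with earlier results of these data known. Values of every sample were given for P2ry6 and, in each family, for up to 3 members of highest mean level, 2 of smallest p and 2 of largest difference; families of 4 or fewer were given in full. Of other lists, up to 4 genes of smallest p and 2 of highest level could be named; any others were named after their values were seen. For 1 gene that this rule selects, the value is not reported here. The number of arrays limits the precision. The 20 alternatives covered background correction, normalization, filters, probe summaries, variance settings, blocking by replicate number, slide column or slide row, and leaving out single samples.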

Additional observations from a re-analysis of the deposited data

How the results depend on the processing

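Over the 20 alternatives, 0 genes of the complex passed the adjusted threshold (limma), with a smallest adjusted p between 0.0852 and 0.432, and the median difference lay between 0.50 and 1.20, the highest with slide row as a block. The sign was the same under every alternative for 36 of the 47 genes; for the 11 that changed sign the cause was not tested. With array weights, the difference was -0.24 for Lce3a, -0.10 for Lce3b, -0.0545 for Lce3c and 0.018 for Sprr4; with slide column as a block it was 0.68 for Sprr3. With slide row as a block, chosen after seeing the data, it was -0.23 for Flg2, 0.20 for Sprr1a, 1.02 for Sprr3, 0.031 for Tchh and 0.26 for Tchhl1, and 2 genes of the complex were lower. With 1 sample left out it ranged from -1.57 to 1.11 for Sprr3, -0.92 to 0.48 for Sprr4, -0.18 to 0.61 for Lce3a, -0.075 to 0.32 for Lce3b, -0.024 to 0.34 for Lce3c, -0.77 to 0.093 for Tchhl1, -0.30 to 0.59 for Flg2, -0.21 to 0.50 for Sprr2f, -0.045 to 0.21 for Sprr1b and -0.17 to 0.087 for Sprr1a. Genes of the complex lower in the labelled knockout then numbered 3 to 9.

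Features past the threshold over the whole array, 32 as reported, numbered 10 with normexp, 18 where dim probes were kept, 5 where all 6 arrays had to be above background, 58 with array weights, 21 with slide column as a block, 0 with slide row as a block (2048 at an unadjusted limma p under 0.05), and 60 with arrays centred on basal keratinocyte genes, an alternative chosen after seeing the data. Leaving out 1 sample gave 13 to 126, the highest without labelled wild-type tumour 2. The labels do not say whether the replicate numbers pair the samples, and the main fit did not pair them. Same-numbered tumours deviated together with correlations of 0.096, 0.25 and 0.14, and each sample correlated best with its own number. These weak correlations do not settle whether the samples are paired. With the replicate block, 5 features and 0 genes of the complex passed, and the median difference was 0.72. Keeping dim probes moved the median over all features to 0.19 and the share higher to 65.8%.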

Other observations

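Lelp1, Prr9 and Smcp, 3 further genes of the same stretch of chromosome 3, lay outside the selection by name. They were looked up by name after the other values were seen, and the stretch was not searched for all its genes. Lelp1, a late envelope-like proline-rich gene, read 0.050, 0.36 and -0.56 in labelled wild-type tumours 1, 2 and 3 and 1.02, 1.05 and 0.82 in labelled knockout tumours 1, 2 and 3. The groups did not overlap, and the difference was 1.01 (SE 0.25, limma adjusted p 0.221 over all probes). Prr9, a proline-rich gene near Lelp1, read 4.03, 4.81 and 1.74 against 2.37, 3.30 and 4.47, a difference of -0.14 (SE 0.85, limma adjusted p 0.963). Its values spread across both groups, with labelled wild-type tumour 2 highest and tumour 3 lowest. Smcp, which encodes a protein of the sperm mitochondrial capsule, was well above background on 0 of the 6 arrays.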
